A study of Mus musculus with 11 samples.

Results

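The genes that write, copy and remove DNA methylation were followed in mouse embryonic stem (ES) cells: Dnmt1, Dnmt3a, Dnmt3b, Dnmt3l, Uhrf1, Tet1, Tet2, Tet3 and Prdm14. These 9 genes were chosen by name. The bulk table held 8 of them among its 12588 genes, and the 5 single-cell tables held all 9 among 29686 gene symbols. Tet3 was not analysed here in bulk.

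For bulk sequencing, Smart-seq2 was run on 1000 wild-type Rex1GFPd2 cells per library in 2i/LIF, 3 libraries from soft agarose microgels and 3 from tissue-culture plastic. The medium 2i/LIF holds LIF, a cytokine, and blocks the kinases MEK and GSK3. Single cells were profiled by inDrop, which counts unique molecular identifiers (UMIs), with 1 library per condition. Of the 5 libraries, 3 were wild type of the E14 line, from serum/LIF on either plastic or gel and from 2i/LIF on plastic. The other 2 came from lines in which a constitutive CAG promoter drives plakoglobin (Jup), a catenin of cell junctions, and were grown on plastic in serum/LIF. The labels give neither the parent line of those cells nor whether each line is a clone. Jup reached 36.7 UMIs per 1e+06 UMIs of its library (CPM) in the serum/LIF wild type, 37.9 in the line of low and 47.8 in the line of high overexpression, and 46.7 in the 2i/LIF wild type. The gap between the lines is about that between the wild-type media, so Jup does not by itself bear out the labels, and the lines are named by their labels only, JupLow and JupHigh.

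Mammalian DNA methylation sits mostly on CG dinucleotides. Dnmt3a and Dnmt3b place it on unmethylated DNA, with Dnmt3l as a partner that has no catalytic activity of its own. Uhrf1 recognises half-methylated sites behind the replication fork and brings in Dnmt1, which copies the mark. The Tet enzymes oxidise methylated cytosine, a first step of its removal. Prdm14 is a germ-cell and naive-state regulator known to repress the de novo methyltransferases. ES cells in 2i/LIF are known to have little DNA methylation compared with those in serum/LIF. No methylation was measured here, so every value below is a transcript level.

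The promoters of the de novo group are shown because its 3 genes were lower together in 2i/LIF, and because their content of CG, the dinucleotide that the family itself acts on, differs. The sequences are from RefSeq on GRCm38.p6, plus strand, with 250 bases before and 50 after the annotated start. CG is in capitals. It reads the same on both strands.
Dnmt3b, chr2:153649199-153649498: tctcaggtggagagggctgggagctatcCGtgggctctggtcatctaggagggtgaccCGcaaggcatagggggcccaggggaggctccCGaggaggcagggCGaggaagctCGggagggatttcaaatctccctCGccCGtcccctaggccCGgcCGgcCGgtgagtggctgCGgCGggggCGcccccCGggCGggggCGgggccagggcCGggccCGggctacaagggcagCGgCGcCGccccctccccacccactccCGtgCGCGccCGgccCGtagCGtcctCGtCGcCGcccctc
Dnmt3l, first annotated start, chr10:78042037-78042336: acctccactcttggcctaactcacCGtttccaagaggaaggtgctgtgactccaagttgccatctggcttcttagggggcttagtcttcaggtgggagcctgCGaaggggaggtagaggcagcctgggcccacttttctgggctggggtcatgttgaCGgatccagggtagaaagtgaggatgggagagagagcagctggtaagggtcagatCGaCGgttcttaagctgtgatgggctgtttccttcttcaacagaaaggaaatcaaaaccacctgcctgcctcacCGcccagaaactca
Dnmt3a, internal start, chr12:3891494-3891793: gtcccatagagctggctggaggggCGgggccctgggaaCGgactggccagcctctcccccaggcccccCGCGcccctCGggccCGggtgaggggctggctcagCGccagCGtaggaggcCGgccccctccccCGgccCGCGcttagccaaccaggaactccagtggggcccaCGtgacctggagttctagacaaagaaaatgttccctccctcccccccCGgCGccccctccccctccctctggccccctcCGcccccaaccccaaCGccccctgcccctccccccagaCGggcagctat
The Dnmt3b window held 30 CG, a count that 11.68% of the 32851 promoters of this length reached. The Dnmt3l window held 6, which 56.44% reached, below the median of 7 over all promoters. The internal Dnmt3a window, at the start of a shorter isoform known from ES cells, held 18 (29.72%). The 2 upstream Dnmt3a windows, not printed, held 46 and 47 (1.65% and 1.443%), and the 2 later Dnmt3l windows held 4 and 3. The counts do not say whether any of these CG was methylated. RefSeq promoters were matched for 8 of the 9 genes (all but Prdm14). No gene-level count here separates one start of Dnmt3a, or of Dnmt3l, from another, so the start used in these cells was not read.

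Of the 9 genes, 3 share exonic bases with a gene on the opposite strand: Dnmt3a 133 bases with Dnmt3aos, Dnmt3l 67 with Aire, and Tet2 43 with Gm42567. Whether the counting used strand is not given in the sources used here, so reads in those bases cannot be assigned to one gene with certainty. In GRCm38 (GENCODE M21), Dnmt1 lies on chromosome 9 (20907209 to 20959888), Dnmt3a on 12 (3806007 to 3914443), Dnmt3b on 2 (153649450 to 153687730) and Dnmt3l on 10 (78041947 to 78063622). Uhrf1 lies on chromosome 17 (56303321 to 56323486), Tet1 on 10 (62804570 to 62908996), Tet2 on 3 (133463679 to 133545139), Tet3 on 6 (83362373 to 83459084) and Prdm14 on 1 (13113457 to 13127163). All 9 are protein-coding.

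The bulk libraries held 866721, 808903 and 707718 reads in gel and 2390575, 2583256 and 637235 on plastic, so depth was uneven between the groups. The single-cell libraries held 112 to 2889 cells of at least 1000 UMIs, with medians of 1731.5 to 2465 UMIs per cell, and no barcode occurred in more than one of them. The gel library was the smallest, with 112 cells and 236195 UMIs, and its table was held only in part. Pluripotency markers were present in all 5 single-cell libraries, at 1426 to 2579 CPM over 6 genes. Primitive endoderm markers (7 genes) summed to 1754 CPM in the serum/LIF wild type on plastic, against 242 to 487 CPM in the other 4, and 14.6% of its cells had a UMI of Gata6, Gata4, Sox17 or Dab2, against 0.692% to 5.36%. Fibroblast markers (6 genes) summed to 39.1 CPM there, 25.4 for JupLow and 2.90 to 4.87 elsewhere. In bulk, pluripotency markers were all listed, no fibroblast marker was, and of the endoderm markers only Lama1 and Sparc were.

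The first comparison asked how the machinery differed between soft gels and plastic in 2i/LIF. The maintenance pair and Tet1 rose in gel, while the de novo enzymes, Tet2 and Prdm14 did not pass the test. Of 7 genes tested, limma with Benjamini-Hochberg adjustment called 3, all higher in gel. Of all 7878 genes tested, 18.3% were called higher and 18.6% lower. The median log2 fold change was 0.37 over the 7 genes and -0.02 over all genes.

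Uhrf1, which guides Dnmt1 to newly copied DNA, had deposited values (reads divided by a library factor) of 284.4, 289.8 and 306.4 in gel and 174.1, 151.0 and 191.3 on plastic. The lowest gel value was above the highest plastic value. Of all tested genes, 49.5% had no overlap between the groups, in either direction. The means were 294 ± 11.5 and 172 ± 20.2 (SD, n = 3), and the log2 fold change was 0.77 (SE 0.12, limma adjusted p 7.53e-05). Dnmt1, the copying enzyme, had values of 79.0, 109.3 and 108.6 in gel and 63.2, 48.1 and 66.8 on plastic, again without overlap. Its means were 98.9 ± 17.3 and 59.4 ± 9.90 (SD, n = 3), and the change was 0.73 on the log2 scale (SE 0.17, limma adjusted p 0.00311). With all libraries thinned to the depth of the shallowest, the change of Dnmt1 was 0.48 and no longer passed (limma adjusted p 0.0619; range over 15 alternatives 0.000282 to 0.0619). In every library Dnmt1 rested on 44 to 152 reads and Uhrf1 on 126 to 419.

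Tet1, the oxidase of the family best known in ES cells, had values of 200.9, 169.4 and 164.9 in gel and 94.8, 107.2 and 113.9 on plastic. The gel libraries were all above the plastic ones. The means were 178 ± 19.6 and 105 ± 9.70 (SD, n = 3), with a log2 fold change of 0.76 (SE 0.13, limma adjusted p 0.00028). Tet2 had values of 62.1, 62.6 and 79.7 in gel and 68.2, 70.0 and 53.1 on plastic. Its groups overlapped, and its log2 fold change was 0.10 (SE 0.17, limma adjusted p 0.692). The rises of Uhrf1, Dnmt1 and Tet1 were of like size, 1.71-fold, 1.67-fold and 1.69-fold by the ratio of means.

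Among the de novo enzymes, Dnmt3b had values of 56.4, 66.3 and 59.1 in gel and 42.0, 44.2 and 54.6 on plastic. The groups did not overlap, as for 49.5% of all tested genes, but the log2 fold change of 0.37 (SE 0.17) did not pass the threshold (limma adjusted p 0.10). It passed with edgeR (adjusted p 0.0455, range over 15 alternatives 0.0455 to 0.341). Dnmt3a was scarce, at 2.26, 16.0 and 11.0 in gel (2, 13 and 8 reads) and 17.9, 12.1 and 24.3 on plastic. Its log2 fold change was -1.15 (SE 0.51, limma adjusted p 0.0811) and rested largely on gel replicate 1, without which it was -0.38. Without gel replicate 2 it was -1.67 and passed (limma adjusted p 0.0261, range over 13 alternatives 0.0261 to 0.440). Dnmt3l had 2, 0 and 2 reads in the gel libraries and 7, 11 and 1 on plastic, where replicates 1 and 2 were the deepest libraries. Its deposited values, scaled for depth, were 2.26, 0 and 2.75 in gel and 2.91, 4.30 and 1.52 on plastic, and overlapped. It did not reach the expression filter.

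Prdm14, the repressor of the de novo genes, had values of 65.5, 34.4 and 48.1 in gel and 64.8, 54.0 and 82.0 on plastic. The groups overlapped, and the log2 fold change was -0.46 (SE 0.22, limma adjusted p 0.0985). Without gel replicate 1 it was -0.69 and passed (limma adjusted p 0.0247, range over 15 alternatives 0.0247 to 0.407).

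**Figure D1:**
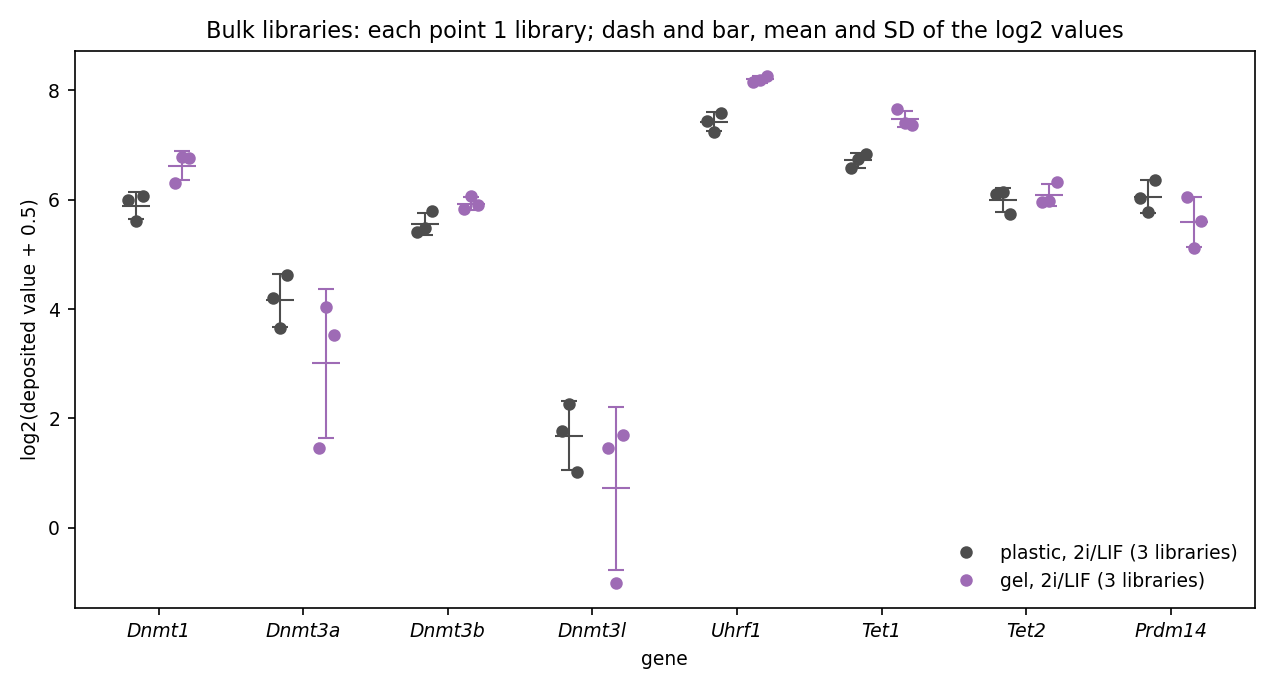
Bulk values of the 8 listed genes on the log2(value + 0.5) scale, plastic (grey) and gel (purple), both in 2i/LIF; each point is 1 library, dashes and bars are the mean and SD of 3 log2 values. Uhrf1, Dnmt1 and Tet1 are separated with gel above, Dnmt3b is separated by less, and the gel points of Dnmt3a and Dnmt3l are spread widely at low values.

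The other genes of the pathway did not move as a block. Over all tested genes, 18.3% were called higher in gel and 18.6% lower. Among maintenance factors and genes of methyl-CG reader families, 2 of 10 tested rose in gel and 2 fell, with a median log2 fold change of -0.04. The methyl-binding zinc finger Zbtb38 fell most (47.2 ± 11.2 against 144 ± 15.4, SD, n = 3; log2 fold change -1.62, limma adjusted p 3.18e-06). Mbd3, of the NuRD complex, rose by 0.56, and Usp7, a deubiquitinase known to bind Uhrf1 and Dnmt1, by 0.38. For both, the gel and plastic values overlapped. Among factors of demethylation and base repair, 5 of 10 fell and the other 5 did not pass, with a median of -0.38. Idh1, which makes the Tet cofactor alpha-ketoglutarate, was at 339 ± 19.4 in gel and 702 ± 22.4 on plastic (SD, n = 3; log2 fold change -1.05, limma adjusted p 5.47e-07). Dppa3, which shields DNA from Uhrf1-dependent methylation, fell by 0.68 on the log2 scale, and the abasic-site endonuclease Apex1 fell by 0.47.

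Of the 5 methyl-donor genes, Ahcy rose by 0.38 and Mat2a fell by 0.40 on the log2 scale. Among heterochromatin and imprint protection factors, 2 of 8 rose and 2 fell, against 18.3% and 18.6% of all tested genes. Trim28, a corepressor for zinc finger proteins, rose from 436 ± 20.3 to 858 ± 80.0 (SD, n = 3; log2 fold change 0.97, limma adjusted p 1.59e-06), the H3K9 methyltransferase Ehmt2 rose by 0.79, and the Prdm14 partner Cbfa2t2 fell by 0.54. Germline genes known to be silenced by promoter methylation had 4 tested members, of which 3 fell and 1 did not pass. These were Tex19.1 (log2 fold change -1.02), Dazl (-0.97) and Stk31 (-0.93), and Dazl was at 34.0 ± 4.07 in gel and 67.7 ± 14.5 on plastic (SD, n = 3).

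Dnmt1 and Uhrf1 are known to be transcribed with the cell cycle, so the S-phase genes were read beside them. Over all tested genes, 18.3% were called higher in gel and 18.6% lower. Of the 10 S-phase genes, 6 fell in gel and 4 did not pass, with a median log2 fold change of -0.44. Mcm6 (-0.82), Mcm5 (-0.56) and Mcm2 (-0.54), subunits of the replicative helicase, fell most. The summed values of the 10 were 3181 to 3617 in gel and 4388 to 4635 on plastic, opposite in direction to Dnmt1 and Uhrf1. Of the 6 naive genes, 4 rose, led by Klf4 (1.84), Esrrb (1.55) and Tbx3 (1.42), and Nanog and Zfp42 fell. Of the 6 pluripotency markers, Utf1 (1.63), Sox2 (1.51) and Pou5f1 (1.31) rose, Nanog and Zfp42 fell, and Tdgf1 did not pass. In bulk, fewer cells of a type and less RNA per cell cannot be told apart. The part of these other genes in the changes of Dnmt1, Uhrf1 and Tet1 was not tested.

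Single cells allowed the same genes to be read across media and lines. Levels are the UMIs of a gene summed over the cells of a library, in CPM, with 95% Poisson intervals, and ratios carry 95% binomial intervals. Both cover counting error only, and with 1 library per condition no difference has a replicate check and none was tested. Genes are called past 2-fold as a description, where the higher library reached 20 CPM.

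Between media, wild-type cells on plastic in 2i/LIF had less of all 3 de novo genes than those in serum/LIF, and more Uhrf1 and Tet2. Of the 7 genes that reached 20 CPM, 2 were past 2-fold higher (background 11.6%) and 3 lower (background 15.3%).

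All 3 de novo genes were lower in 2i/LIF. Dnmt3l was at 228 CPM in serum/LIF (interval 208 to 250) and 26.4 in 2i/LIF (23.1 to 30.2), 8.64-fold lower, a log2 ratio of -3.11 (-3.35 to -2.88). Dnmt3b was at 555 and 150 CPM, a log2 ratio of -1.89 (-2.00 to -1.77). Dnmt3a was at 107 and 42.6 CPM, a log2 ratio of -1.32 (-1.57 to -1.07). These 3 signs, and all 3 ratios past 2-fold, held in the 8 alternative choices of cells and scaling, in which the ratios ran from -3.21 to -2.86, -1.92 to -1.63 and -1.57 to -1.07. Because the serum/LIF wild type held more cells with endoderm markers, one of these choices left out every cell with such a UMI, and gave -2.90 for Dnmt3l, -1.92 for Dnmt3b and -1.45 for Dnmt3a.

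The maintenance pair was higher in 2i/LIF but unequally. Uhrf1 was at 90.7 CPM in serum/LIF and 212 in 2i/LIF, a log2 ratio of 1.23 (1.01 to 1.46). Dnmt1 was at 112 and 144 CPM, a log2 ratio of 0.36 (0.15 to 0.57). Within a library no total enters, and there were 0.810 UMIs of Uhrf1 per UMI of Dnmt1 in serum/LIF (0.663 to 0.988) and 1.48 in 2i/LIF (1.37 to 1.59). Each of these counts uses its own gene's capture, so only the change between libraries is read.

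The Tet family split. Tet2 was at 15.4 CPM in serum/LIF and 36.8 in 2i/LIF, a log2 ratio of 1.26 (0.73 to 1.84), while Tet1 was at 244 and 196 CPM, a log2 ratio of -0.31 (-0.46 to -0.17) that shrank to -0.06 with TMM scaling. Tet3 was rare, with 32 UMIs in serum/LIF (15.9 CPM) and 7 in 2i/LIF (0.845 CPM), under the 20 CPM level in both. Its log2 ratio was -4.23 (-5.65 to -3.02). Prdm14 went the other way, with 5 UMIs in serum/LIF (2.48 CPM, 0.805 to 5.78) and 92 in 2i/LIF (11.1 CPM, 8.95 to 13.6), a log2 ratio of 2.16 (0.89 to 3.82).

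**Figure D2:**
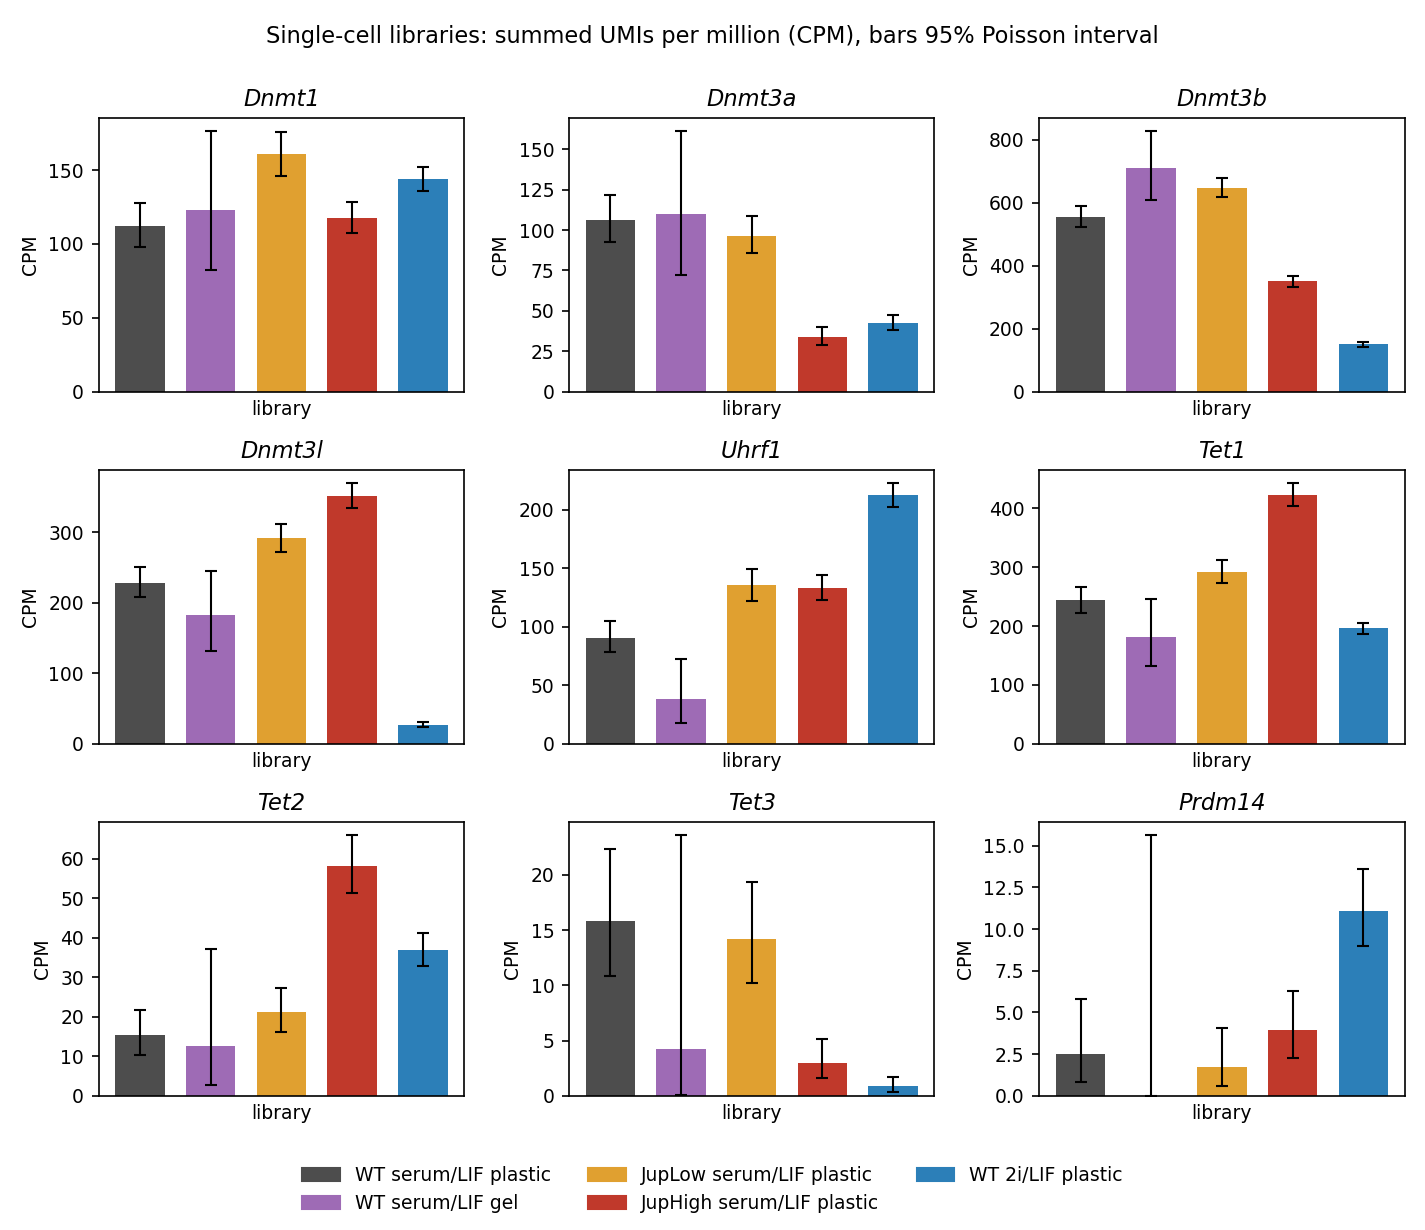
Level of each gene in the 5 single-cell libraries, in CPM from 0, 1 bar per library with its 95% Poisson interval. Dnmt3l is highest in the library labelled JupHigh and 26.4 CPM in 2i/LIF, Dnmt3a is low in both of those libraries, and Tet1 and Tet2 peak in the library labelled JupHigh.

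The library labelled JupHigh was grown in serum/LIF, and its levels matched neither wild-type medium for the whole family. Against the serum/LIF wild type, Tet2 was past 2-fold higher (background 7.94%) and Dnmt3a past 2-fold lower (background 15%), out of 7. Against the 2i/LIF wild type, Dnmt3l, Dnmt3b and Tet1 were past 2-fold higher (background 3.64%), and 0 of 7 were past 2-fold lower (background 6.48%). The comparisons share libraries and are given side by side.

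Dnmt3a was at 33.9 CPM in the library labelled JupHigh (28.6 to 39.8), the lowest of the 5. That was 3.15-fold below the serum/LIF wild type, a log2 ratio of -1.65 (-1.97 to -1.34), and by a small margin below 2i/LIF (-0.33, -0.62 to -0.05). Dnmt3l stood at the opposite end, at 351 CPM (334 to 370), the highest of the 5. Its log2 ratio was 0.62 (0.47 to 0.78) over the serum/LIF wild type and 3.73 (3.53 to 3.94) over 2i/LIF, 13.3-fold. Dnmt3b lay between the media at 350 CPM (333 to 368), with a log2 ratio of -0.66 (-0.78 to -0.55) to serum/LIF and 1.22 (1.11 to 1.33) to 2i/LIF. Without cells holding an endoderm marker UMI, the ratios to serum/LIF were -1.77 for Dnmt3a, 0.83 for Dnmt3l and -0.70 for Dnmt3b.

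Counted within each library, there was 1.00 UMI of Dnmt3l per UMI of Dnmt3b in the library labelled JupHigh (0.934 to 1.08). There were 0.412 in the serum/LIF wild type, 0.451 in the library labelled JupLow, 0.256 in gel (0.179 to 0.360) and 0.176 in 2i/LIF (0.152 to 0.204). UMIs of Dnmt3a per UMI of Dnmt3b ran the other way, 0.0967 in the library labelled JupHigh (0.0810 to 0.115) against 0.192 in the serum/LIF wild type and 0.284 in 2i/LIF. The catalytic genes and their cofactor thus stood in different proportions in the 2 libraries with high naive gene levels. Naive genes summed to 2056 CPM in the library labelled JupHigh and 1932 CPM in 2i/LIF, against 394 to 593 CPM in the other 3.

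Tet1 and Tet2 were highest in the library labelled JupHigh, and Tet3 was not. Tet1 was at 423 CPM (404 to 443), a log2 ratio of 0.79 (0.65 to 0.94) to the serum/LIF wild type and 1.11 (1.01 to 1.21) to 2i/LIF. With TMM scaling, which shifts all genes of that first comparison by 0.28, or with every deposited barcode counted, Tet1 was also past 2-fold against serum/LIF. Barcodes under 500 UMIs numbered 5904 in that wild type and 1343 for JupHigh, so the latter setting counted unlike sets of barcodes. Tet2 was at 58.2 CPM (51.2 to 65.9), a log2 ratio of 1.92 (1.38 to 2.51) to serum/LIF and 0.66 (0.41 to 0.91) to 2i/LIF. Tet3, with 13 UMIs (3.02 CPM), was below the serum/LIF wild type by a log2 ratio of -2.39 (-3.45 to -1.42) and below JupLow by -2.24 (-3.26 to -1.31), under 20 CPM in all 3.

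Uhrf1 was at 133 CPM in the library labelled JupHigh (122 to 145), between the serum/LIF wild type (log2 ratio 0.55, 0.31 to 0.80) and 2i/LIF (-0.67, -0.81 to -0.54). Dnmt1 was at 117 CPM, with a log2 ratio to serum/LIF of 0.07 (-0.16 to 0.30) that turned to -0.0021 without barcodes above 3 times the median UMI count. Prdm14 had 17 UMIs (3.94 CPM, 2.30 to 6.31), below 2i/LIF by a log2 ratio of -1.49 (-2.33 to -0.74).

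**Figure D3:**
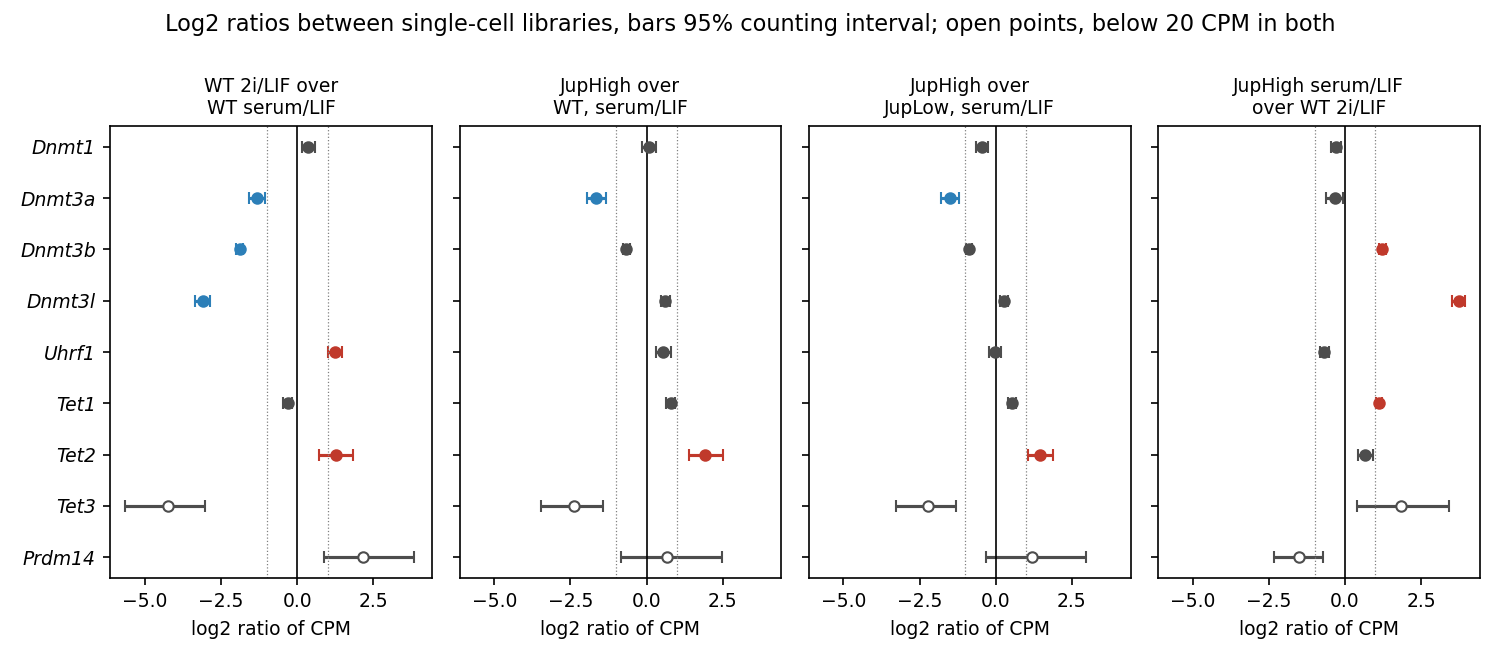
Log2 ratios of CPM for the 9 genes in 4 comparisons between single-cell libraries, with 95% counting intervals; dotted lines mark 2-fold, red and blue points are past it with at least 20 CPM, open points are below 20 CPM in both libraries. Dnmt3l is far left in the first panel (-3.11) and far right in the last (3.73), while Dnmt3a is left in the first 3.

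In the library labelled JupLow, 0 of 7 genes were past 2-fold higher (background 6.02%) or lower (background 7.67%) against the serum/LIF wild type. Dnmt3b was at 647 CPM (618 to 677), a log2 ratio of 0.22 (0.11 to 0.33), and Dnmt3l at 291 CPM (0.35, 0.19 to 0.52). Dnmt1 was at 161 CPM, the highest of the 5 with cells of at least 1000 UMIs, a log2 ratio of 0.52 (0.29 to 0.76). Uhrf1 was at 135 CPM (0.58, 0.32 to 0.84). Dnmt3a, at 96.6 CPM, had an interval of -0.40 to 0.12 around a log2 ratio of -0.14, and the ratio was 0.03 with TMM scaling.

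Between the 2 lines, 1 of 7 genes was past 2-fold higher in the library labelled JupHigh (background 2.63%) and 1 lower (background 8.44%). Tet2 was the higher one (58.2 against 21.2 CPM, log2 ratio 1.46, 1.05 to 1.89) and Dnmt3a the lower (33.9 against 96.6 CPM, -1.51, -1.81 to -1.22). Dnmt3b had a log2 ratio of -0.89 (-0.98 to -0.79) and Tet1 of 0.54 (0.42 to 0.65). Uhrf1 did not differ beyond counting error (-0.02, -0.21 to 0.17). For Dnmt1 the log2 ratio was -0.45 (-0.64 to -0.27), but 0.07 when every deposited barcode was counted.

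Gel and plastic in serum/LIF could be compared only coarsely, since the gel library held 9 UMIs of Uhrf1, 29 of Dnmt1 and 43 each of Tet1 and Dnmt3l. Of 6 genes at 20 CPM, 0 were past 2-fold higher (background 9.06%) and Uhrf1 alone was past it lower (background 14.2%). Uhrf1 was at 38.1 CPM in gel (17.4 to 72.3) and 90.7 on plastic, a log2 ratio of -1.25 (-2.40 to -0.29). With cells of at least 500 UMIs it was -0.45. Dnmt3b was at 711 CPM in gel (608 to 827) and 555 on plastic, a log2 ratio of 0.36 (0.12 to 0.59). Tet1 had a log2 ratio of -0.42 (-0.91 to 0.03), which was 0.05 with every deposited barcode and -1.11 with cells of at least 2000 UMIs. Prdm14 had 0 UMIs in gel, where 3 UMIs would be 12.7 CPM, and its loss or gain was not detectable at this depth.

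The order of the 5 libraries differed from gene to gene. For Dnmt3l it ran JupHigh, JupLow, the serum/LIF wild type, gel and 2i/LIF, and all neighbours but serum/LIF and gel differed beyond counting error. For Dnmt3b it ran gel, JupLow, serum/LIF, JupHigh and 2i/LIF, with only gel and JupLow not separated. Tet1 ran JupHigh, JupLow, serum/LIF, 2i/LIF and gel, the last 2 not separated. For Uhrf1, 2i/LIF was highest and gel lowest, and JupLow and JupHigh were not separated. For Dnmt1, JupLow lay above 2i/LIF by a log2 ratio of 0.16 (0.0020 to 0.32). With cells of at least 500 UMIs, or with every deposited barcode, JupLow lay below 2i/LIF. No later neighbours of Dnmt1 were separated. For Dnmt3a, gel, serum/LIF and JupLow were not separated, and 2i/LIF and then JupHigh lay below them. For Tet2, JupHigh lay above 2i/LIF, 2i/LIF above JupLow, and the last 3 were not separated. For Prdm14 the 1 separated step was 2i/LIF above JupHigh, and for Tet3, where gel had 1 UMI, the 1 separated pair of neighbours was JupHigh above 2i/LIF.

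Shares of cells with a UMI of Dnmt3l, Dnmt3b and Tet1 in the 4 plastic libraries ran in the order of their levels when each cell was thinned to 1000 UMIs. That order did not hold in every setting. Thinned to 2000 UMIs, 38.6% of serum/LIF wild-type cells and 36.9% of JupLow cells held a Tet1 UMI. On all UMIs, 60.6% and 60.4% held a Dnmt3b UMI. With each cell thinned to 1000 UMIs, 19.4% of the serum/LIF wild-type cells held a Dnmt3l UMI (16.6% to 22.5%, exact binomial interval). The share was 2.39% (1.86% to 3.01%) for the 2i/LIF wild type, 20.8% for JupLow and 28.1% for JupHigh. Counted on all UMIs it was 35.4%, 6.16%, 36.2% and 44.4%, with a median of 2361, 2465, 2193.5 and 1902 UMIs per cell. For Dnmt3b the thinned shares were 36.6%, 12.7%, 38.5% and 27.7% in the same order, and for Tet1 22.1%, 16.3%, 23.8% and 31.4%. A UMI of any of Dnmt3a, Dnmt3b or Dnmt3l occurred in 53.5%, 18.3%, 55.8% and 48.4%. No cell type that lacks these genes was defined. Barcodes under 500 UMIs, which can hold free RNA or shallow cells, had Dnmt3l at 259 CPM in the serum/LIF wild type, at 315 for JupLow and at 454 for JupHigh, at or above the levels in cells. In the same order, Dnmt3b was at 438, 405 and 363 CPM in such barcodes, against 555, 647 and 350 in cells. Tet1 was at 148, 93.5 and 309 CPM, against 244, 292 and 423 in cells. The part of free RNA in the shares was not tested, and in 2i/LIF such barcodes were too few to read.

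**Figure D4:**
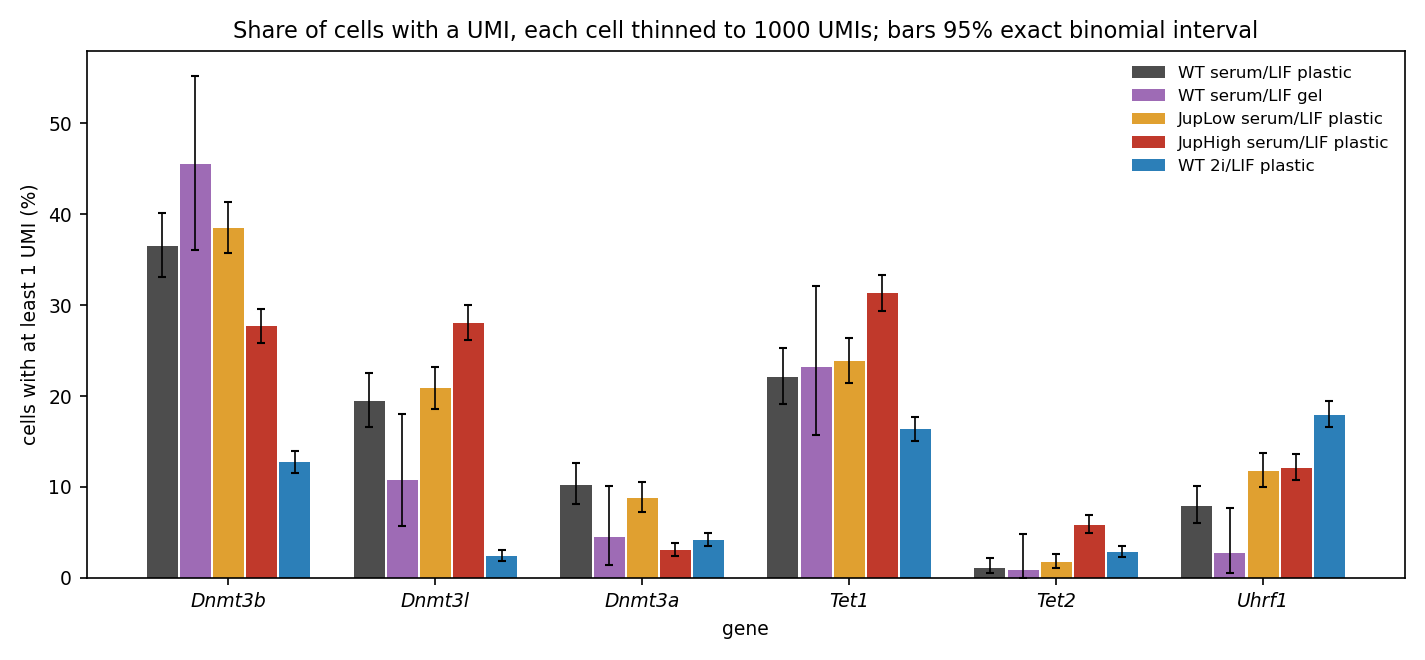
Percent of cells with at least 1 UMI of each gene, every cell thinned to 1000 UMIs, 1 bar per library with its 95% exact binomial interval. Dnmt3l is at 28.1% in the library labelled JupHigh against 2.39% in 2i/LIF, and Uhrf1 is highest in 2i/LIF at 18.0%.

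Within the serum/LIF libraries, cells were split by whether the thinned cell held a UMI of any of the 6 naive genes (Nanog, Esrrb, Klf4, Tfcp2l1, Zfp42, Tbx3), a split chosen after the data were seen. A Dnmt3l UMI occurred in 25.9% of wild-type cells with a naive UMI (52 of 201) and 17.0% of those without (89 of 524). In the library labelled JupLow the shares were 28.2% and 17.8%, in that labelled JupHigh 29.6% and 21.1%, and in gel 22.2% (8 of 36) and 5.26% (4 of 76). Dnmt3l thus had the larger share beside a naive UMI in each of the 4 serum/LIF libraries, with intervals that overlapped in the wild-type libraries and not in those labelled JupLow and JupHigh. In 2i/LIF the shares were 2.30% and 2.68%.
Dnmt3b had 33.3% with and 37.8% without a naive UMI in the serum/LIF wild type on plastic, but 41.4% and 37.3% for JupLow and 28.3% and 24.8% for JupHigh. In gel, 18 of 36 cells with a naive UMI and 33 of 76 without one had a Dnmt3b UMI. The Dnmt3b intervals overlapped in all 4. Dnmt1 had 10.4% beside a naive UMI and 10.5% without it in the serum/LIF wild type on plastic. Tet1 had 31.3% and 20.8% in the library labelled JupLow, and 21.4% and 22.3% in the serum/LIF wild type on plastic. In gel it had 30.6% and 19.7%, and for JupHigh 31.5% and 30.6%. Dnmt3a had 13.9% and 8.78% in the serum/LIF wild type on plastic, but 2.78% and 5.26% in gel. For JupLow and JupHigh, Dnmt3a, Dnmt1, Uhrf1 and Tet2 also had the larger share beside a naive UMI, with overlapping intervals. The larger share was thus not particular to Dnmt3l in those libraries. Genes outside the family were not split this way. In 2i/LIF the share was larger beside a naive UMI, with intervals that did not overlap, for Uhrf1 (20.2% and 10.4%), Dnmt3b (14.0% and 8.35%) and Dnmt1 (11.8% and 7.75%). For Tet1 (17.3% and 13.3%) and Tet2 (3.02% and 2.38%) it was larger with overlapping intervals. Cells are not replicates, so these shares describe the libraries.

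**Figure D5:**
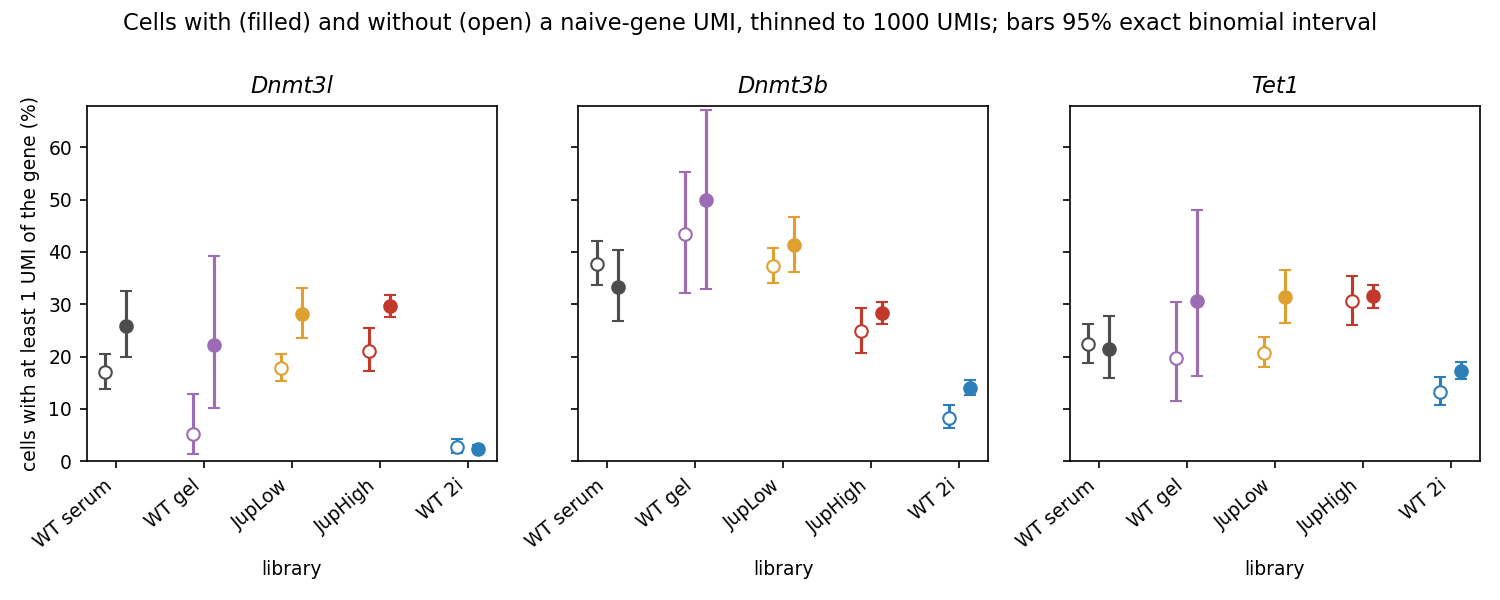
Percent of cells with a UMI of Dnmt3l, Dnmt3b or Tet1 among cells with (filled) and without (open) a UMI of 6 naive genes, by library, each cell thinned to 1000 UMIs; bars are 95% exact binomial intervals. The filled Dnmt3l point is above the open one in the 4 serum/LIF libraries and not in 2i/LIF (2.30% and 2.68%).

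Other genes of the pathway were read in the same libraries. From serum/LIF to 2i/LIF, 11.6% of all genes at 20 CPM were past 2-fold higher and 15.3% lower. Of 12 maintenance factors and genes of reader families, 2 were past 2-fold higher and 1 lower. The thymine glycosylase Mbd4 went from 12.9 to 49.5 CPM (log2 ratio 1.94, 1.37 to 2.57), Zbtb38 from 8.92 to 21.1 and Mbd2 from 27.3 to 11.7. Of 8 demethylation and repair genes, 2 were higher and 1 lower: Dppa3 went from 6.44 to 39.0 CPM (2.60, 1.80 to 3.52), Idh1 from 51.0 to 103, and Gadd45a, a stress-induced gene also tied to demethylation, from 61.0 to 12.3 (-2.31, -2.70 to -1.92). Among the methyl-donor genes, Shmt2, a mitochondrial enzyme of one-carbon metabolism, went from 58.0 to 125 CPM (1.11, 0.84 to 1.40), and it alone of 4 was past 2-fold. Of 7 protection genes, Wiz, a partner of the H3K9 methyltransferases, went from 124 to 18.0 CPM (-2.79, -3.09 to -2.49), and 0 were higher. Wiz was at 18.0 to 33.9 CPM in all 4 libraries other than the serum/LIF wild type on plastic.

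In the library labelled JupHigh, Gadd45a was at 44.8 CPM, above 2i/LIF by a log2 ratio of 1.86 (1.51 to 2.22), while Idh1 (-1.25, -1.49 to -1.02) and Idh2 (-1.58, -1.83 to -1.34) were below it. Dppa3 was at 25.7 CPM, 2.00 above the serum/LIF wild type (1.17 to 2.95). The germline gene Tex19.1 was at 124 CPM, against 33.2 in the serum/LIF wild type (log2 ratio 1.90, 1.53 to 2.29) and 37.2 in 2i/LIF. It was at 83.7 CPM for JupLow. It was the 1 germline gene of 12 that reached 20 CPM in the comparison with the serum/LIF wild type. S-phase genes summed to 2175 CPM in the serum/LIF wild type, 2908 in 2i/LIF, 2701 in the library labelled JupHigh and 2550 in that labelled JupLow. Among the plastic libraries, Uhrf1 was lowest where this sum was lowest and highest where it was highest, and JupLow and JupHigh were not separated. In gel the sum was 2392 CPM, above the serum/LIF wild type on plastic, yet Uhrf1 was lower there, at 38.1 CPM from 9 UMIs. Dnmt1 was highest for JupLow, where the sum was below those of 2i/LIF and JupHigh. That rank depended on the barcodes kept. With cells of at least 500 UMIs, the log2 ratio of Dnmt1 to the serum/LIF wild type was 0.28 for JupLow and 0.40 for 2i/LIF. With every deposited barcode it was 0.36 and 0.65. The part of S-phase cells in the levels of Uhrf1 and Dnmt1 was not tested. Formative or primed genes summed to 34.3 CPM for JupHigh and 22.5 in 2i/LIF, against 199 to 308 in the other 3.

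Among 4697 genes at 50 CPM or more in some library, those nearest to each gene across the 5 libraries, by distance on centred log2(CPM + 5), were listed. For Dnmt3b they were Utf1 (distance 0.08), Slc38a4 (0.13) and Gadd45a (0.29). For Dnmt3a they were Vcan (0.09), Arl8a (0.19) and Arpc5 (0.21), and for Dnmt1 they were Atp2c1, Vdac2 and Nudt21 (0.07 to 0.10). For Tet1 they were Gm47283, Foxd3 and Ercc6l2 (0.22 to 0.30), for Tet2 Cep55, Zfp553 and Trps1 (0.29 to 0.40), and for Uhrf1 Arih2, Lpcat3 and Tspan14 (0.37 to 0.43). Dnmt3l had no near neighbour: the closest, Ina, Esrp1 and Grb10, were at 1.05 to 1.06. Utf1, a chromatin factor of pluripotent cells, went with Dnmt3b at 450 CPM in the serum/LIF wild type, 129 in 2i/LIF, 605 in gel, 533 for JupLow and 300.2 for JupHigh. With 5 libraries these are descriptions of likeness, without a test.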

How the data were processed

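The members and the gene lists were chosen with earlier results of these data known. The deposited bulk values are a signal, gene counts divided by 1 factor per library: 100% of values came out as whole reads within 0.01 reads. The deposited single-cell values are whole UMI counts, without normalization. The submitters' processing notes name FastQC, STAR, featureCounts, DESeq2 and Scanpy, and the builds mm10 and GRCm38, with no versions.

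Bulk groups were compared with limma 3.58.1 (R 4.3.3, intensity trend) on log2(value + 0.5), with Benjamini-Hochberg adjustment at 0.05. Genes had to pass edgeR's expression filter on recovered reads. edgeR 4.0.16 and DESeq2 1.42.0 on the recovered reads were alternatives. The added 0.5 shrinks the change of low genes. Even so, the log2 fold change of the scarce Dnmt3a was larger in size with limma (-1.15) than with edgeR (-0.77) or DESeq2 (-0.84). The fit was also run on simulated reads, drawn with the means and spread of these same libraries. Such a run cannot show effects of culture or batch. Nothing says that replicates came from separate cultures, so p-values measure only the spread between these libraries. Replicate pairs differed by more than sampling noise (chi-square per degree of freedom 1.58 to 2.20). The names of the bulk plastic columns hold a mark for gel as well as one for plastic, and these columns were taken as plastic. The second plastic replicate is numbered differently in its title and description, and the title was followed.

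Single-cell barcodes of at least 1000 UMIs were kept. Those with 8 G at an end were left out, as were unnamed columns (0.00509% to 0.499% of UMIs). No doublet caller was run. Barcodes under 500 UMIs numbered 5904 in the serum/LIF wild type on plastic, 4404 for JupLow, 1343 for JupHigh, 439 in gel and 1 in 2i/LIF. Counting every deposited barcode thus did not compare like sets of barcodes. The gel table breaks off: its barcodes run only from aaac to accc, those of the other tables from aaac to tgtt, and its 1 incomplete row was dropped. Intervals are exact (95%). All 9 members are named, and of each list the 3 largest changes among called genes (bulk) or genes at 20 CPM (single cells). Alternatives changed the pseudocount, filter, scaling, tool, depth, cells and libraries used.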

Additional observations from a re-analysis of the deposited data

Results flagged for a closer look

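Dnmt3b moved in opposite directions in the 2 lines against the same wild-type library: its log2 ratio was -0.66 in the library labelled JupHigh and 0.22 in the library labelled JupLow, and both intervals excluded 0 in all 8 alternatives. Uhrf1 had a log2 ratio of -1.25 in gel over plastic in serum/LIF single cells, from 9 UMIs in gel, against a rise of 0.77 in the bulk 2i/LIF libraries. Tet1 had a ratio of -0.42 in the same single cells, with an interval that included 0 (-0.91 to 0.03), against a rise of 0.76 in bulk. With every deposited barcode that single-cell ratio was 0.05. For all 3 genes the difference between the settings was not tested. For the last 2, medium, line and assay differ as well.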

How the results depend on the processing

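The count of 3 called members in bulk was 2 with libraries thinned to the shallowest, 4 with edgeR, and 3 to 4 without single libraries, and Uhrf1 and Tet1 passed in all 15 alternatives. Same-numbered gel and plastic libraries did not deviate together (r -0.05, 0.02 and 0.02), and the main fit used no pairing. With 3 libraries per group, these correlations cannot exclude a shared culture or batch. With a replicate block 3 members were called, and 2988 genes in place of 2906. No other member call changed under the block. Tet2, not called, reversed to -0.022 without gel replicate 3 and -0.030 without plastic replicate 3, in a range up to 0.17 over single libraries left out. Of 103 bulk fold changes under alternatives 97 kept direction and call. In single cells, the count of members past 2-fold lower in gel went from 1 to 0 at 500 UMIs per cell, 0 with every deposited barcode and 2 (Uhrf1 and Tet1) at 2000 UMIs. The count higher in the library labelled JupHigh over wild type went from 1 to 2 with every barcode and with TMM factors, and over the library labelled JupLow from 1 to 2 with every barcode. The other 90 counts were the same. The causes were not tested. Without cells holding an endoderm marker UMI, an alternative chosen after seeing the data, no count changed. Depth limits Prdm14 and Tet3 in all single-cell libraries, and every gene in gel.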
